A study of Ovis aries with 9 samples.

Results

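Creatine synthesis and the methionine cycle were followed in sheep liver through 9 genes, chosen by name for their place in methyl-group metabolism: MAT1A, GNMT, PEMT, GAMT, GATM, AHCY, BHMT, SHMT1 and CBS. All 9 were found among the 21257 genes of the table. The list was drawn up with earlier results from these libraries known, and it holds no threshold on a measured value. Differences between diets in these 9 genes are therefore given as a description, with their errors and without a p-value for any gene.

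In this pathway MAT1A makes S-adenosylmethionine (SAM), the methyl donor of the cell, from methionine and ATP. Methyltransferases spend SAM and leave S-adenosylhomocysteine, which AHCY splits to homocysteine. Homocysteine is either remethylated to methionine, with methyl groups from betaine or folate, or passed by CBS into cysteine synthesis. The liver is the main site of this cycle in mammals, and creatine synthesis and phosphatidylcholine synthesis are among the largest consumers of SAM. In ruminants much of the dietary choline is broken down in the rumen, so that little of this methyl source reaches the tissues.

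Livers came from male Tan sheep, a fat-tailed Chinese breed, aged 5 months. Controls received a basal diet, and the other groups received that diet with 1% or 2% succinate, an intermediate of the tricarboxylic acid cycle, for 60 days after a 10-day pretrial period. The trial held 30 sheep, housed in pairs with 5 stalls to each diet, and 9 libraries, 3 per diet, were analysed here. The labels do not tie a library to an animal or a stall, so the spread between libraries may be partly technical. Library 3 at 1% carries 1% in its treatment label and 2% in its title. It was kept at 1%. For the 9 genes the differences that it moves most are also given without it or with it at 2%. Differences of other genes, and ratios apart from that of GATM to GAMT, are given only with it at 1%.

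Levels are FPKM, fragment counts divided by gene length and by the total of the library, as deposited by the authors, so that levels of different genes can be compared per length. Recovered reads numbered 13818648 to 18172528 per library. The 9 genes were covered by 154 to 44029 reads per library, with GNMT at the lower end and GATM at the upper, so counting error weighs most on GNMT (154 to 488 reads) and PEMT (238 to 898 reads). Hepatocyte markers summed to 43614 to 66372 FPKM on the control diet, 66129 to 69255 at 1% and 64352 to 74128 at 2%. Within that sum libraries 2 and 3 at 1% stood apart, with the highest FGA, FGB and FGG of the 9 libraries, while ALB (11749 FPKM) and TTR (1087 FPKM) were lowest in library 2 at 1%. The 9 skeletal muscle markers in the table each stayed below 1 FPKM in every library. Kidney and pancreas, which also express GATM in mammals, were checked as well: 6 of 6 pancreatic acinar markers and 5 of 6 kidney tubule markers in the table were below 1 FPKM in every library. SLC12A1 reached 3.07 FPKM in control 3, and UMOD and CLPS were at 0 in all 9.

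In controls the level followed the order GATM, GAMT, SHMT1, MAT1A, AHCY, BHMT, CBS, PEMT, GNMT, on the FPKM scale. GATM ranked 55 of 21257 genes and GNMT ranked 3673. Mean levels were 959.9 ± 176 FPKM for GATM and 384 ± 93.1 for GAMT (SD, n = 3), and their ranges did not overlap. The ranges of GAMT, SHMT1 and MAT1A overlapped from neighbour to neighbour, as did those of PEMT and GNMT. PEMT was below GNMT in each library at both doses, with PEMT at 6.18 to 14 FPKM and GNMT at 18.2 to 27.4 at 1%, and PEMT at 7.79 to 11.9 and GNMT at 8.33 to 16.2 at 2%. The ranges of the pair overlapped at 2% and not at 1%.

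**Figure D1:**
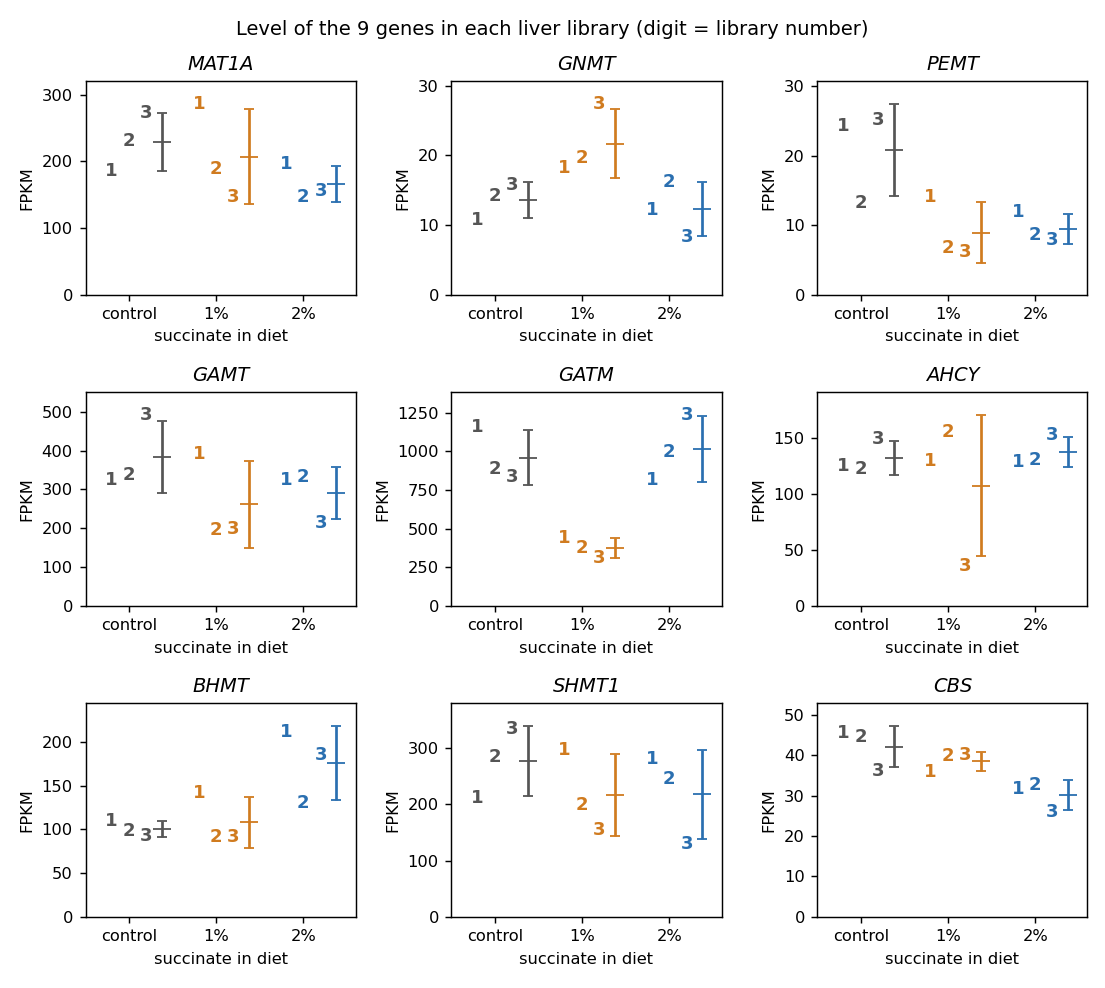
FPKM of each of the 9 genes by diet. Each digit is 1 library with its number, and the bar beside them is the mean ± SD of 3 libraries. The 3 libraries at 1% lie at 307 to 440.5 FPKM for GATM, below the 812 to 1236 FPKM at 2% and the 831 to 1160.4 FPKM of controls.

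Creatine synthesis begins with GATM, the mitochondrial enzyme that joins the amidino group of arginine to glycine and forms guanidinoacetate. GATM stood at 1160.4, 888 and 831 FPKM on the control diet 1 to 3, at 440.5, 375 and 307 in the libraries at 1%, and at 812, 999 and 1236 in those at 2%. All 3 libraries at 1% were below each of the other 6, and controls and 2% overlapped. The mean at 1% was 374 ± 67 FPKM (SD, n = 3), a difference from control of -1.36 in log2(FPKM + 1) with an SE of 0.247, or a 2.56-fold lower level. Against control 2% differed by 0.08 (SE 0.247), and against 1% it was higher by 1.43 (SE 0.247). The difference at 1% ranged from -1.48 to -1.21 when any 1 library was left out, and it was -1.22 without the library of conflicting labels. With that library moved to 2%, the difference at 2% from control became -0.35 and that between the doses 0.87. The small difference at 2% was also below 0 without control 3 (-0.02) or library 3 at 2% (-0.08). T and NK cell markers (8 of 8 in the table) summed to 36.4 to 50.6 FPKM on the control diet, 19.4 to 27.1 at 1% and 22.1 to 32.3 at 2%. The sum at each dose was below that of every control. Taken singly, CD3D, CD3E, CD3G, CD2, NKG7 and GZMA each overlapped between controls and 2%, and CD8A and CCL5 did not. Between controls and 1%, CD3E, CD3G, CD2 and NKG7 each overlapped, and CD3D, CD8A, GZMA and CCL5 did not. The part of these markers in the result was not tested. In whole tissue fewer cells of a type and less RNA per cell cannot be told apart.

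GAMT, which methylates guanidinoacetate to creatine with SAM, did not share this pattern. It stood at 324, 337 and 492 FPKM on the control diet, at 391, 195 and 198 at 1%, and at 324, 333 and 214 at 2%. The groups overlapped, with libraries 2 and 3 at 1% and library 3 at 2% below every control. Differences from control were -0.61 (SE 0.321) at 1% and -0.40 (SE 0.321) at 2% on the log2 scale. Leaving out 1 library gave -0.94 (without library 1 at 1%) to -0.42 (without control 3) at 1%, and -0.45 without the library of conflicting labels. At 2% it gave -0.52 (without library 2 at 2%) to -0.20 (without library 3 at 2%).

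Within a library the GATM level was 3.58, 2.63 and 1.69 times that of GAMT in controls, 1.13, 1.92 and 1.55 times at 1%, and 2.51, 3 and 5.77 times at 2%. All 3 values at 1% lay below all 3 at 2%, while controls overlapped with each dose. With the library of conflicting labels (1.55) moved to 2%, the doses overlapped.

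MAT1A, the SAM synthetase of the adult hepatocyte, stood at 185, 230.5 and 272 FPKM on the control diet, at 286, 188 and 147 at 1% and at 196, 146 and 155 at 2%. Its groups overlapped, and the difference from control was -0.18 (SE 0.271) at 1% and -0.46 (SE 0.271) at 2%. The value at 1% became 0.03 without the library of conflicting labels and -0.44 without library 1 at 1%, and that at 2% ranged from -0.61 to -0.33 when any 1 library was left out. MAT2A, which encodes the SAM synthetase of most other tissues, was at 97.9 ± 30.9 FPKM on the control diet, 77.5 ± 1.83 at 1% and 73.2 ± 3.81 at 2%. The MAT1A level was 2.55 ± 1 times that of MAT2A in controls, 2.67 ± 0.934 times at 1% and 2.25 ± 0.243 times at 2% (SD, n = 3). This ratio was 1.39 in control 1, where MAT2A was at 133 FPKM, and 3.09 and 3.16 in controls 2 and 3. It ranged from 1.85 to 3.69 at 1% and from 2.08 to 2.53 at 2%.

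Among the enzymes that spend SAM, GNMT methylates glycine to sarcosine and is regarded as the outlet for surplus SAM in liver. It stood at 10.7, 14.2 and 15.8 FPKM on the control diet, at 18.2, 19.6 and 27.4 at 1%, and at 12.2, 16.2 and 8.33 at 2%. Each library at 1% was above each of the other 6. The difference from control was 0.64 (SE 0.254) at 1% and -0.16 (SE 0.254) at 2%, and the difference between the doses was -0.80 (SE 0.254). The difference at 1% was 0.47 without the library of conflicting labels, which had the highest value, and with it at 2% the difference between the doses was -0.34. At 2% the sign turned with that library moved there (0.12) or without library 3 at 2% (0.07).

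PEMT makes phosphatidylcholine from phosphatidylethanolamine by successive SAM-dependent methylations. Its level was 24.3, 13.2 and 25.1 FPKM on the control diet, 14, 6.63 and 6.18 at 1%, and 11.9, 8.59 and 7.79 at 2%. Controls 1 and 3 stood well above the other 7 libraries. Control 2 lay below library 1 at 1% and above every library at 2%. The difference from control was -1.17 (SE 0.329) at 1%, or 2.25-fold lower, and -1.03 (SE 0.329) at 2%, or 2.05-fold lower. It ranged from -1.51 to -0.98 at 1% and from -1.32 to -0.88 at 2% when any 1 library was left out. The other route to phosphatidylcholine runs through PCYT1A, which makes CDP-choline. The PEMT level was 2.05, 1.2 and 2.32 times that of PCYT1A in controls, 1.21, 0.625 and 0.594 times at 1% and 1.17, 0.754 and 0.646 times at 2%. The ratio in control 2 was close to that of library 1 at each dose.

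**Figure D2:**
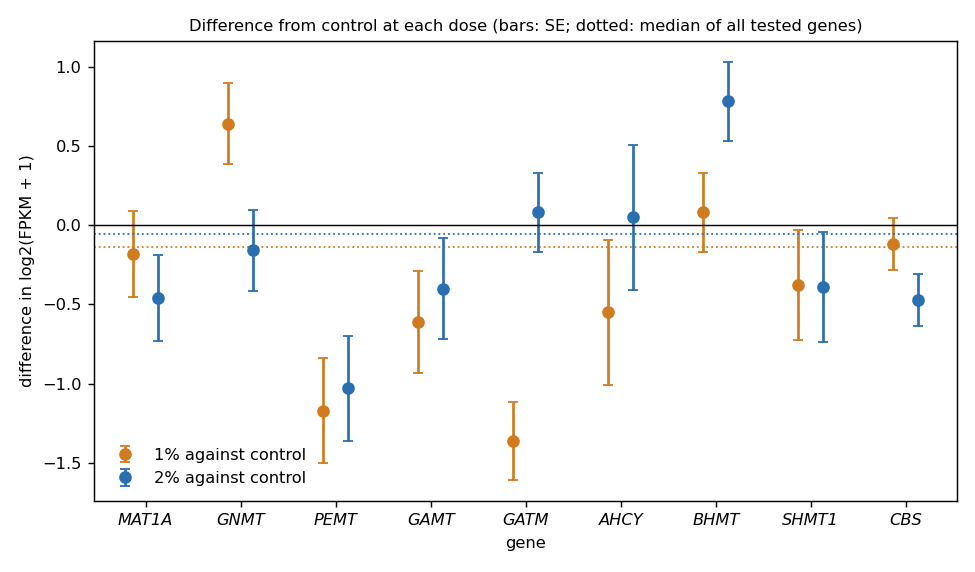
Difference from control in log2(FPKM + 1) for each gene at 1% and 2% succinate, with SE bars from the fit over all 9 libraries and dotted lines at the median of all tested genes (-0.139 at 1% and -0.055 at 2%). GATM differs from control by -1.36 at 1% and 0.08 at 2%, PEMT by -1.17 and -1.03, and BHMT by 0.08 and 0.78.

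AHCY hydrolyses S-adenosylhomocysteine to homocysteine and adenosine. It stood at 125, 122 and 149 FPKM on the control diet, at 129, 155 and 35.4 at 1%, and at 128, 130.4 and 152 at 2%. A single library, number 3 at 1%, was 3.43-fold below the lowest of the other 8, which lay between 122 and 155 FPKM. This is the library with conflicting labels, and 1136 reads covered the gene there. The difference at 1% from control was -0.55 (SE 0.457) with this library and 0.11 without it. At 2% the difference from control was 0.05 (SE 0.457), and that between the doses was 0.60 (SE 0.457). With this library moved to 2%, these became -0.42 and -0.53. Without it the difference between the doses was -0.05.

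Remethylation of homocysteine by BHMT draws its methyl group from betaine. BHMT stood at 110.1, 98.5 and 92.2 FPKM on the control diet, at 142, 90.8 and 91 at 1% and at 212, 129.7 and 185 at 2%. The libraries at 2% were above every control, and library 1 at 1% lay above library 2 at 2%. The difference from control was 0.78 (SE 0.247) at 2%, or 1.71-fold higher, and 0.08 (SE 0.247) at 1%. It ranged from 0.63 to 0.98 at 2% when any 1 library was left out, and moving the library of conflicting labels to 2% gave 0.55. At 1% the sign turned without library 1 at that dose (-0.14). Markers of stellate cells and fibroblasts (7 of 7 in the table) summed to 132, 54.9 and 194 FPKM in libraries 1 to 3 at 2%. The sums were 58.4 to 72.3 FPKM on the control diet and 60.2 to 71 at 1%. At 2% the sum and BHMT were both lowest in library 2, while the sum was highest in library 3 and BHMT in library 1. In library 2 at 2% the sum was below every control and BHMT above every control. The part of these markers in the result was not tested. BHMT2, a close paralog next to BHMT in the sheep reference, may share reads with it, since the treatment of such reads is not given in the sources used here. BHMT2 was at 58.7 ± 10.2 FPKM on the control diet, 57 ± 39.6 at 1% and 81 ± 40.3 at 2% (SD, n = 3).

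Folate-dependent remethylation is carried out by MTR, the cobalamin-dependent methionine synthase. MTR was at 8.77 ± 1.77 FPKM on the control diet, 6.95 ± 0.892 at 1% and 7.97 ± 0.989 at 2%. The BHMT level was 10.2, 12.8 and 11.8 times that of MTR in controls, 22.6, 11.4 and 13.8 times at 1% and 30.4, 14.5 and 23.2 times at 2%, with no overlap between controls and 2%.

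SHMT1, the cytosolic enzyme that moves a carbon unit from serine to folate, stood at 211, 285 and 334 FPKM on the control diet, at 297, 199.6 and 154 at 1% and at 280.0, 246 and 129 at 2%. Its groups overlapped throughout, with differences from control of -0.38 and -0.39 (SE 0.346 each). Leaving out 1 library moved them to between -0.63 (without library 1 at 1%) and -0.16 (without the library of conflicting labels) at 1%. At 2% the range was -0.61 (without library 1 at 2%) to -0.05 (without library 3 at 2%). In the sheep reference SHMT1 overlaps SMCR8, MAT1A overlaps DYDC1 and BHMT overlaps LOC105611628. Strand use in counting is not given, so reads of these overlapping pairs may not be told apart.

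CBS condenses homocysteine with serine to cystathionine and so opens transsulfuration. It stood at 45.6, 44.4 and 36.2 FPKM on the control diet, at 35.9, 39.7 and 40.0 at 1% and at 31.7, 32.7 and 25.9 at 2%. All libraries at 2% were below all 6 others. The difference from control was -0.47 (SE 0.164) at 2%, or 1.39-fold lower, and -0.12 (SE 0.164) at 1%. Median-ratio scaling of the libraries turned the difference at 1% to 0.04. With the library of conflicting labels (40.0 FPKM) moved to 2%, the difference at 2% was -0.37, and that group overlapped with both others. CTH, which cleaves cystathionine to cysteine, was at 31.2, 23.4 and 18.1 FPKM on the control diet, 35.4, 43 and 57 at 1% and 19.7, 45 and 18.4 at 2%. CTH did not pass at 1% (log2 difference 0.88, SE 0.345, adjusted p = 0.31, limma) or at 2% (0.10, adjusted p = 0.989). The CBS level was 1.46, 1.9 and 2 times that of CTH in controls, 1.01, 0.924 and 0.702 times at 1% and 1.6, 0.727 and 1.41 times at 2%, so that controls and 1% did not overlap. These ratios were chosen after the values were seen.

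**Figure D3:**
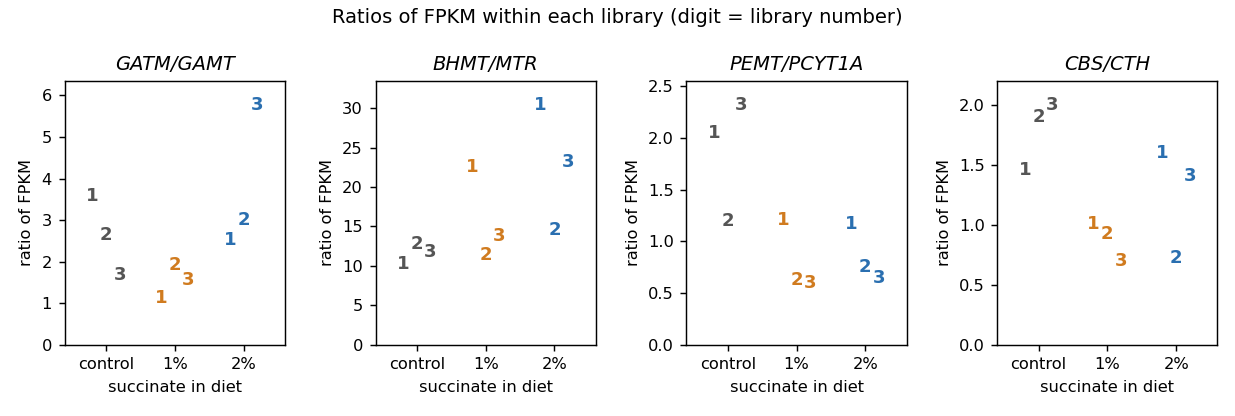
Ratio of FPKM values within each library for GATM/GAMT, BHMT/MTR, PEMT/PCYT1A and CBS/CTH, by diet, where each digit is 1 library. The GATM/GAMT ratio is 1.13 to 1.92 at 1% and 2.51 to 5.77 at 2%, and the CBS/CTH ratio is 1.46 to 2 in controls and 0.702 to 1.01 at 1%.

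Counted together, 0 of the 9 genes passed an adjusted p of 0.05 over the 11944 tested genes at 1% or 2%, with limma or with voom. Of all tested genes 0.0167% passed at 1%, all of them lower, and 0.0502% at 2%, 0.0167% higher and 0.0335% lower. Between the doses 0% passed. At an unadjusted p under 0.05 there were 3 of the 9 in each comparison, against 14.9% of all tested genes at 1%, 5.18% at 2% and 7.48% between the doses. Libraries of the 2 groups did not overlap for 1 gene on the higher side at 1% (GNMT, against 2.28% of all tested genes) and 1 on the lower side (GATM, against 15.6%). At 2% there were 1 higher (BHMT, against 2.6%) and 2 lower (PEMT and CBS, against 8.02%). Between the doses GATM was higher at 2% (against 11%) and GNMT and CBS lower (against 3.33%). With the library of conflicting labels moved to 2%, BHMT and CBS overlapped with controls at 2%, and PEMT did not. GATM, GNMT and CBS then overlapped between the doses. The shares of all tested genes were not recomputed for that placement. The median difference of the 9 genes was -0.38 at 1% and -0.39 at 2%, beside -0.139 and -0.055 for all tested genes. Both comparisons share the control libraries, and since the genes were chosen with results known, nothing is read from these counts.

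Across the 9 libraries the genes fell into patterns that partly crossed the diets. GAMT and SHMT1 varied together most closely (Pearson r = 0.87 in log2(FPKM + 1)), followed by PEMT with GAMT (0.83), MAT1A with SHMT1 (0.77) and MAT1A with GAMT (0.72). These 4 genes were all higher in library 1 at 1% than in libraries 2 and 3 at 1%. Fibrinogen transcripts ran the other way in these libraries: FGB was at 8771, 21117 and 15615 FPKM in libraries 1 to 3 at 1%, against 5886 to 11977 in the other 6. SPP1, the gene for osteopontin, was at 0.524, 129 and 112 FPKM there and at most 33.1 FPKM in the other 6. The other 5 cholangiocyte markers (KRT19, KRT7, EPCAM, SOX9 and CFTR) were each lower in libraries 2 and 3 at 1% than in library 1. The part of these genes in the pattern was not tested. GATM and GNMT, the glycine-using pair, had r = -0.88, and BHMT and CBS, the alternative fates of homocysteine, had r = -0.76. These coefficients describe 9 libraries that share 3 diets and a scaling by library total, and they carry no test.

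**Figure D4:**
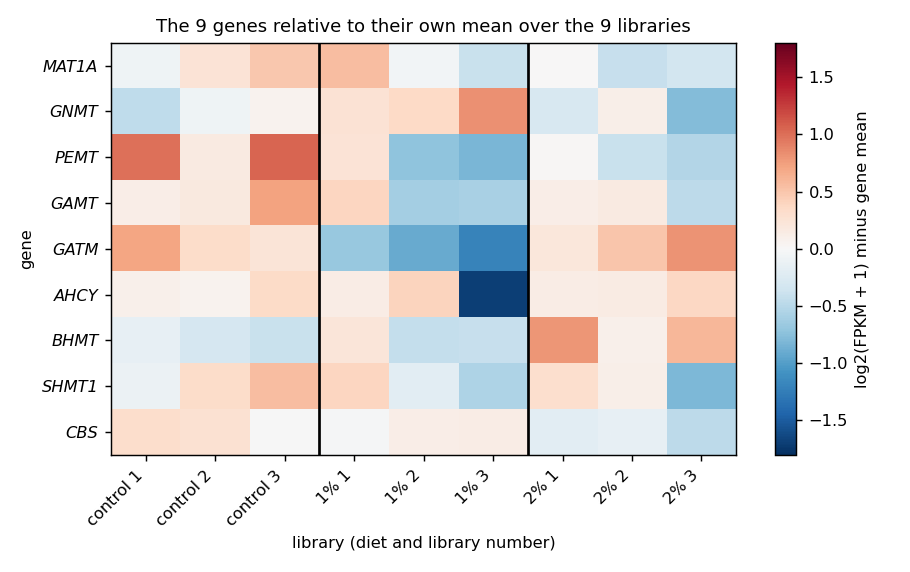
Level of each gene in each library in log2(FPKM + 1), relative to the mean of that gene over the 9 libraries (red above, blue below, vertical lines between diets). GATM is low in the 3 libraries at 1%, AHCY is low in library 3 at 1% with 35.4 FPKM, and MAT1A, PEMT, GAMT and SHMT1 are higher in library 1 at 1% than in libraries 2 and 3.

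The tested genes outside the list with the most similar profile were identified by the highest r over the 9 libraries. For GATM these were RASSF6 (r = 0.963), at 2.78 ± 0.845 FPKM on the control diet, 0.693 ± 0.293 at 1% and 2.14 ± 0.381 at 2%, and SIPA1L3 (0.956). For GAMT they were SOD1 (0.992), the cytosolic superoxide dismutase, and CCS (0.972), the copper chaperone of SOD1. SOD1 was at 767 ± 257 FPKM on the control diet, 493 ± 248 at 1% and 558 ± 134 at 2%. For PEMT they were GCLM (0.98), the modifier subunit of the first enzyme of glutathione synthesis, and IER3 (0.971). The closest genes were CERS6 (0.972) and SLC27A2 (0.959) for MAT1A, CDIP1 (0.967) and GALNT18 (0.919) for GNMT, and SLC25A21 (0.96) and AFM (0.959) for AHCY. They were FCHO2 (0.971) and CCND1 (0.961) for BHMT, CCDC17 (0.949) and TMEM143 (0.925) for SHMT1, and HDAC1 (0.965) and VPS51 (0.955) for CBS. Each coefficient is the highest or next highest among tested genes that have a symbol and are not on the list, on 9 points that share 3 diets.

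Around these enzymes, 114 further genes in 10 lists covered the rest of the pathways, of which 106 were in the table and 99 were tested. With limma 0 of 99 passed in either direction at 1%, at 2% or between the doses, and voom also gave 0 in each comparison. At an unadjusted p under 0.05 there were 20 of 99 at 1%, 12 at 2% and 8 between the doses, beside 14.9%, 5.18% and 7.48% of all tested genes. Relative to control 21 genes were above 0 and 78 below at 1%, with a median of -0.26, and 29 were above and 70 below at 2%, with a median of -0.12. Of all tested genes 68.6% were below 0 at 1% and 60.7% at 2%.

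**Figure D5:**
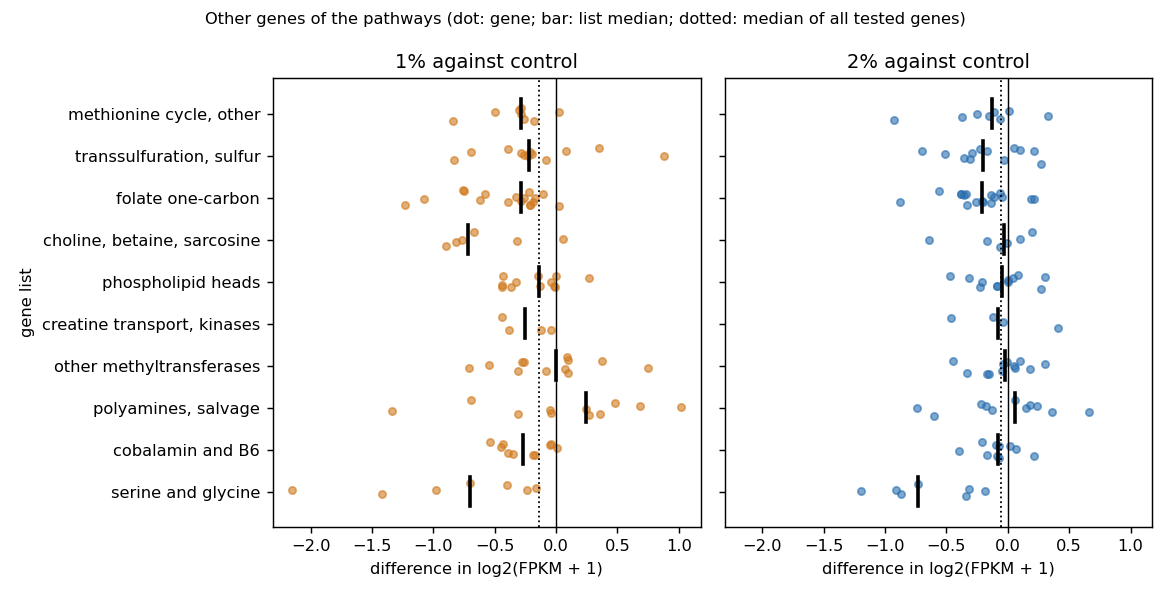
Difference from control in log2(FPKM + 1) of the tested genes in each of the 10 further lists at 1% (left) and 2% (right). Dots are genes, black bars are list medians and dotted lines mark the median of all tested genes. The list for serine and glycine has medians of -0.70 and -0.73, and that for choline, betaine and sarcosine -0.72 and -0.04.

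In the rest of the methionine cycle (8 of 8 tested, 0 passing) MTRR had the smallest p at both doses. Its product reactivates methionine synthase by reducing the bound cobalamin. MTRR stood at 7.66, 5.97 and 8.91 FPKM on the control diet, 4.05, 3.67 and 3.42 at 1% and 3.47, 3.23 and 3.53 at 2%, with every library on succinate below every control. It did not pass at 1% (log2 difference -0.84, SE 0.154, adjusted p = 0.133, limma) or at 2% (-0.93, SE 0.154, adjusted p = 0.151). MAT2A did not pass either (-0.29 and -0.37, adjusted p = 0.52 and 0.95).

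The choline, betaine and sarcosine list (6 of 7 tested, 0 passing) had a median difference of -0.72 at 1% and -0.04 at 2%. CHDH, the choline dehydrogenase that feeds betaine to BHMT, stood at 12, 12.3 and 15.2 FPKM on the control diet, 7.36, 9.85 and 5.2 at 1% and 13.3, 10.5 and 11 at 2%. All 3 libraries at 1% were below the other 6 (log2 difference from control -0.77, SE 0.21, adjusted p = 0.254, limma). SARDH, which oxidises the sarcosine made by GNMT, was at 20.1 ± 3.7 FPKM on the control diet, 10.9 ± 1.93 at 1% and 12.5 ± 2 at 2% (SD, n = 3). Its differences of -0.82 and -0.64 did not pass (adjusted p = 0.217 and 0.868).

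The serine and glycine list (7 of 7 tested, 0 passing) was the list with all members below control at both doses. Its median was -0.70 at 1% and -0.73 at 2%. Not all of its genes serve supply, since it also holds GLYAT, which conjugates glycine. GLYCTK, glycerate kinase, was at 15.8 ± 6.95 FPKM on the control diet, 2.93 ± 1.85 at 1% and 6.33 ± 3.43 at 2% (SD, n = 3). It did not pass at 1% (log2 difference -2.15, SE 0.474, adjusted p = 0.199) or at 2% (-1.20, adjusted p = 0.95). AGXT, the peroxisomal aminotransferase that turns glyoxylate to glycine, stood at 146, 157 and 134 FPKM on the control diet, 137, 101 and 133 at 1% and 89.2, 91.3 and 80.9 at 2%. The libraries at 2% were below all others (log2 difference from control -0.73, SE 0.179, adjusted p = 0.661, limma).

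Of the creatine transport and kinase list 4 of 5 genes in the table were tested and 0 passed. SLC6A8, the creatine transporter of the plasma membrane, was at 3.22 ± 0.159 FPKM on the control diet, 2.17 ± 0.662 at 1% and 2.9 ± 0.388 at 2% (SD, n = 3). CKB, the brain-type creatine kinase, was at 20.8 ± 4.07, 15.7 ± 1.47 and 14.7 ± 0.617 FPKM. Adjusted p was 0.312 for SLC6A8 at 1% and 0.903 for CKB at 2% (limma). The muscle creatine kinase CKM was at 0 in all 9 libraries.

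The folate list had 17 of 18 genes tested and 0 passing, with 16 below control at 1% and 15 at 2%. AMT, the tetrahydrofolate-dependent subunit of the glycine cleavage system, stood at 22.4 ± 1.51 FPKM on the control diet, 10.8 ± 5.18 at 1% and 19.4 ± 1.31 at 2% (SD, n = 3). The difference at 1% was -1.08 (SE 0.279, adjusted p = 0.249, limma). GCSH, the lipoyl-bearing subunit of that system, was at 53.7 ± 22.9 FPKM on the control diet and 28.1 ± 9.56 at 2% (adjusted p = 0.95).

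Polyamine synthesis and methionine salvage (11 of 12 genes in the table tested, 0 passing) had a median of 0.24 at 1% and 0.06 at 2%. PAOX, a peroxisomal oxidase of acetylated polyamines, stood at 24.2, 17.7 and 22.8 FPKM on the control diet, 7.66, 9.78 and 6.45 at 1% and 14.1, 13.6 and 9.96 at 2%. The 3 groups did not overlap one another. PAOX had the smallest adjusted p of the 99 genes at 1% (log2 difference -1.34, SE 0.202, adjusted p = 0.089, limma), and its difference at 2% was -0.74 (SE 0.202, adjusted p = 0.839).

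The 4 other lists had 0 passing genes as well. In transsulfuration and sulfur amino acids (12 tested) GCLM was at 22.3 ± 3.57 FPKM on the control diet, 12.6 ± 4.85 at 1% and 13.3 ± 1.58 at 2% (SD, n = 3), with adjusted p = 0.261 and 0.903. Among other methyltransferases (12 tested) NNMT, which methylates nicotinamide, ranged from 15.4 to 83.6 FPKM within the 1% group alone. In that list AS3MT had a difference of -0.71 at 1% (adjusted p = 0.302) and CARM1 of -0.33 at 2% (adjusted p = 0.95). In the phospholipid list (12 tested) PTDSS1 had -0.44 at 1% (adjusted p = 0.394) and PCYT2 -0.47 at 2% (adjusted p = 0.95). In cobalamin and vitamin B6 handling (10 tested) MMAB had -0.54 at 1% (adjusted p = 0.351) and PDXK -0.40 at 2% (adjusted p = 0.95).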

How the data were processed

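Liver RNA-seq values from 9 libraries, 3 per diet, were read from 1 deposited table of 21257 genes, whose unit is FPKM per gene, per the file headers. Per the labels' protocols, total RNA was extracted with TRIzol and libraries were made with a NEBNext Ultra kit and sequenced as paired ends. The sources used here name no aligner, counter or annotation. The submitters' processing notes list GRCm38 and mm10, which are mouse builds, while 20156 names were found in a sheep annotation table (ARS-UI_Ramb_v3.0), used for names and neighbours only. No coordinates are given.

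Whole reads were recovered from the steps of the FPKM values, with a tolerance of 0.01 read, for all 17402 genes detected in 2 or more libraries. These served for depth and for voom. No batch is labelled. No library was a copy of another (chi-square over degrees of freedom of 35.3 or more for each pair).

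The test was that of limma (version 3.58.1, under R 4.3.3) with trended empirical Bayes variances. It was applied to log2(FPKM + 1) of the 11944 genes with at least 1 FPKM in at least 3 libraries. A log2 difference on this scale understates that of low genes. All 9 libraries entered 1 fit of group means. Two-sided p-values received Benjamini-Hochberg adjustment over all tested genes, with a threshold of 0.05. The code was also run on simulated data, with a spread between libraries that was fixed in advance and not taken from these libraries. That run does not measure power in these data. The 9 genes and the further lists were chosen with earlier results of these data known. From each further list any gene that passed (0 did) and the gene with the smallest p at each dose is named, with MAT2A, CTH, SLC6A8, NNMT and CHDH in every case. A further gene that the rule names is not reported here. Similar genes are the 2 with a symbol and the highest Pearson r to each of the 9. MTR, BHMT2, PCYT1A, CKB at 1% and CKM were named after their values were seen. Python 3.11.15, pandas 2.3.3 and numpy 2.4.6 handled the table, and matplotlib 3.10.9 drew the plots. The alternatives were other filters, pseudocounts, scalings, fits and placements of the library with conflicting labels, a replicate block, voom and leaving out each library.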

Additional observations from a re-analysis of the deposited data

How the results depend on the processing

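Of the 9 genes and of the 99 further pathway genes, 0 passed in any of the 3 comparisons under each of the 18 alternatives run. Over all genes, the 2 that passed at 1% became 0 with no filter, a mean FPKM of at least 5, a pseudocount of 0.1, quantile scaling, median-ratio scaling, the 2 groups alone, the replicate block, the conflicting library placed at 2% and voom on recovered reads, and 0 to 4 when a library was left out (4 without library 1 at 1%). The 6 at 2% became 3 with no filter and with voom, 1 with a mean of at least 5, with the replicate block and with the conflicting library placed at 2%, 0 in the 2 groups alone, and 0 to 7 when a library was left out (0 without control 1 or without library 1 or 3 at 2%). Between the doses the count of 0 became 1 without library 1 at 1% and stayed at 0 otherwise. The cause was not tested. Deviations of same-numbered libraries from their group means had correlations of -0.295 to 0.278, and those of differently numbered libraries -0.293 to 0.453. Deviations within a group of 3 sum to 0, so these correlations cannot exclude a pairing by library number. The replicate block changed no call among the 9 genes and the 99 further ones.

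Of 486 differences of the 9 genes under an alternative, 6 moved by at least 1 SD and 22 changed sign, none of them of a gene that passed. Placing the conflicting library at 2% gave 5 of those 6, in GATM, GNMT and AHCY. The SD of this count is not the SE given with the differences. AHCY at 1% went from -0.55 (SE 0.457) to 0.11 without that library and was not counted as moved. CBS at 1% went from -0.12 (SE 0.164) to 0.04 with median-ratio scaling and was counted.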

Other observations

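None of the following 3 genes passed, and they were named after their values were seen. GLYAT, which conjugates glycine to acyl groups, was at 523 ± 152 FPKM on the control diet, 211 ± 129 at 1% and 273 ± 49.2 at 2% (SD, n = 3), with both doses below the range of controls (adjusted p = 0.259 and 0.95, limma). PIPOX, a peroxisomal oxidase of pipecolate and sarcosine, was at 54.1 ± 7.1 FPKM on the control diet, 29.8 ± 11.5 at 1% and 62.1 ± 7.68 at 2%, with all libraries at 1% below the other 6 (adjusted p = 0.261 at 1% and 0.436 between the doses). DMGDH, which oxidises the dimethylglycine left by BHMT and lies next to BHMT2 in the sheep reference, ranged from 42 to 82.1 FPKM on the control diet, from 19.4 to 68.1 at 1% and from 27.5 to 113 at 2%. Its differences were -0.67 (SE 0.545, adjusted p = 0.556) and -0.01 (adjusted p = 0.999).

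In library 3 at 1%, AHCY was among 50 genes (0.419% of all tested genes) that lay at least 3-fold below the lowest of the other 8 libraries. Only genes with at least 1 FPKM in each of those 8 libraries were counted. The same count was 1 to 18 in the other 8 libraries.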
